A study of Homo sapiens with 12 samples.

Results

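Creatine kinases move a phosphate group between ATP and creatine. The 8 genes described here encode these kinases, the enzymes that make creatine and the transporter that brings it into cells. They are CKMT1A, CKMT1B, CKMT2, CKB, CKM, GATM, GAMT and SLC6A8, chosen by symbol out of 17687 named genes on the array. Each of the 8 had 1 feature on the array, so no choice between features was needed. CKMT1A and CKMT1B drew attention to the family through their low values in DLD1 cells after siRNA against BRG1. Their DLD1 change, and the average and the difference between the lines that contain it, are therefore given as a description with no test. In the other comparisons they were tested, with a spread estimated from all 12 arrays, the DLD1 siBRG1 arrays included. The comparison of the control lines uses the DLD1 siControl arrays, against which those low values stood. The p-values of CKMT1A and CKMT1B there are therefore not independent of the choice.

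RNA of DLD1 and HCT 116, established human colorectal cancer cell lines, was hybridised to 12 single-colour Affymetrix arrays. The 4 groups were DLD1 siControl (DLD1 cells given a control siRNA), DLD1 siBRG1 (DLD1 cells given an siRNA against BRG1), HCT 116 siControl and HCT 116 siBRG1, with 3 arrays each. BRG1 is the product of SMARCA4, an ATPase that drives SWI/SNF chromatin remodelling complexes. No source used here gives the siRNA sequences or the time after transfection, or says that the 3 arrays of a group hold RNA of separate cultures. The spread between them, against which all p-values were computed, may therefore be technical. Values are on the deposited log2 scale, where a difference of 1 is a 2-fold difference.

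The creatine system stores and moves high-energy phosphate. Mitochondrial kinases, encoded by CKMT1A and CKMT1B in many tissues and by CKMT2 in heart and skeletal muscle, charge creatine with phosphate from newly made ATP. Cytosolic kinases, encoded by CKB in brain and gut epithelium among other tissues and by CKM in muscle, use phosphocreatine to restore ATP where it is spent. Cells take up creatine through the transporter encoded by SLC6A8 or make it in a pair of steps, in which GATM joins arginine and glycine to form guanidinoacetate and GAMT adds a methyl group.

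CKMT1A and CKMT1B lie in a duplicated segment of chromosome 15 and encode the ubiquitous mitochondrial creatine kinase. RefSeq promoter windows were found for 7 of the 8 members (CKMT1A, CKMT1B, CKMT2, CKB, CKM, GATM and SLC6A8), with 5 alternative starts for CKMT1A and 2 for CKMT1B. The windows of the pair are shown because their rows moved together. Those of CKB and SLC6A8 are shown because these genes differed most between the lines. Each is the 250 bases before a transcript start in GRCh38.p14, written 5′ to 3′ on the gene's strand, with matches on either strand in capitals. The motifs in capitals are CACGTG, called the E-box, the CCAAT box, the TATA box with the letters TATAAA, and the AP-1 site with the letters TGANTCA.
CKMT1B, chr15:43593584-43593833, plus strand: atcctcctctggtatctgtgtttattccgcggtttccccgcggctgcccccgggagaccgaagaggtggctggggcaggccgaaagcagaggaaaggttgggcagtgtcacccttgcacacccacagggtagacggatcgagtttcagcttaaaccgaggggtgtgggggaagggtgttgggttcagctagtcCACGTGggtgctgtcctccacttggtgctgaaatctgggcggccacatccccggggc
CKMT1A, chr15:43693441-43693690, plus strand: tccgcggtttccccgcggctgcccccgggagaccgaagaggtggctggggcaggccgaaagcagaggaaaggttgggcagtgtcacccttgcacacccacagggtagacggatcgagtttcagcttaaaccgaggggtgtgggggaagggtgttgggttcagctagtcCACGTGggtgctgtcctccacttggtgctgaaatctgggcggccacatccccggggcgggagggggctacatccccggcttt
CKB, chr14:103522831-103523080, minus strand: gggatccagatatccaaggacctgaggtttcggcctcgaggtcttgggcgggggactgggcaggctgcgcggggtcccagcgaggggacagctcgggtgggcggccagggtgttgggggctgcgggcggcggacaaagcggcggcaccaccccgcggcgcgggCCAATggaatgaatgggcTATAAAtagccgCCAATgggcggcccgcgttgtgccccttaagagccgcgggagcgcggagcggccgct
SLC6A8, chrX:153687676-153687925, plus strand: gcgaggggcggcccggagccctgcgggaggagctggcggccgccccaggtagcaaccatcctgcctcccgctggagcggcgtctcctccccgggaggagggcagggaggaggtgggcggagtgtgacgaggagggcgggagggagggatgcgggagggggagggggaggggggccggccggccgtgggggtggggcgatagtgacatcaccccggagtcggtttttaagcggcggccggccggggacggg

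The printed windows of CKMT1A and CKMT1B were taken to 300 bases each, as RefSeq gives them. Set side by side they overlapped over 275 bases, and all 275 were identical. Other pairings of the listed windows had from 28.5% to 100% identical bases at their best alignment. The 250-base windows printed here each held 1 CACGTG, which 6.34% of 35116 promoter windows of 250 bases held. Over all starts listed, 2 of the 5 CKMT1A windows and 1 of the 2 CKMT1B windows held it. The 2 CKMT1A windows overlap and hold the same CACGTG. The CKB window held 1 TATAAA, present in 10.7% of windows, and 2 CCAAT matches, a motif present in 32% of windows. The SLC6A8 window held none of these. The GC box GGGCGG, present in 42.6% of windows, had 4 matches each in the SLC6A8 and CKB windows, 2 in that of CKMT1A and 1 in that of CKMT1B. No window printed here matched TGANTCA, present in 6.57% of windows. These matches describe the letters of the windows only.

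The siRNA target was low in the siBRG1 arrays of both lines. SMARCA4 lay between 9.95 and 10.31 on the DLD1 siControl arrays and between 6.29 and 6.55 on the DLD1 siBRG1 arrays. In HCT 116 it lay between 9.59 and 10.15 and between 6.39 and 7.03. Array medians lay between 6.36 and 6.50, and without detection calls a value below the median of its array cannot be told from background here. Of 11 intestinal epithelial markers measured, EPCAM, CDH1, KRT8, KRT18, KRT19 and CDX2 were above the array median on all 12 arrays, while VIL1, CDX1, LGALS4 and GPA33 were below it on all 12. CDH17 was above it in DLD1 and below it in HCT 116.

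**Figure D1:**
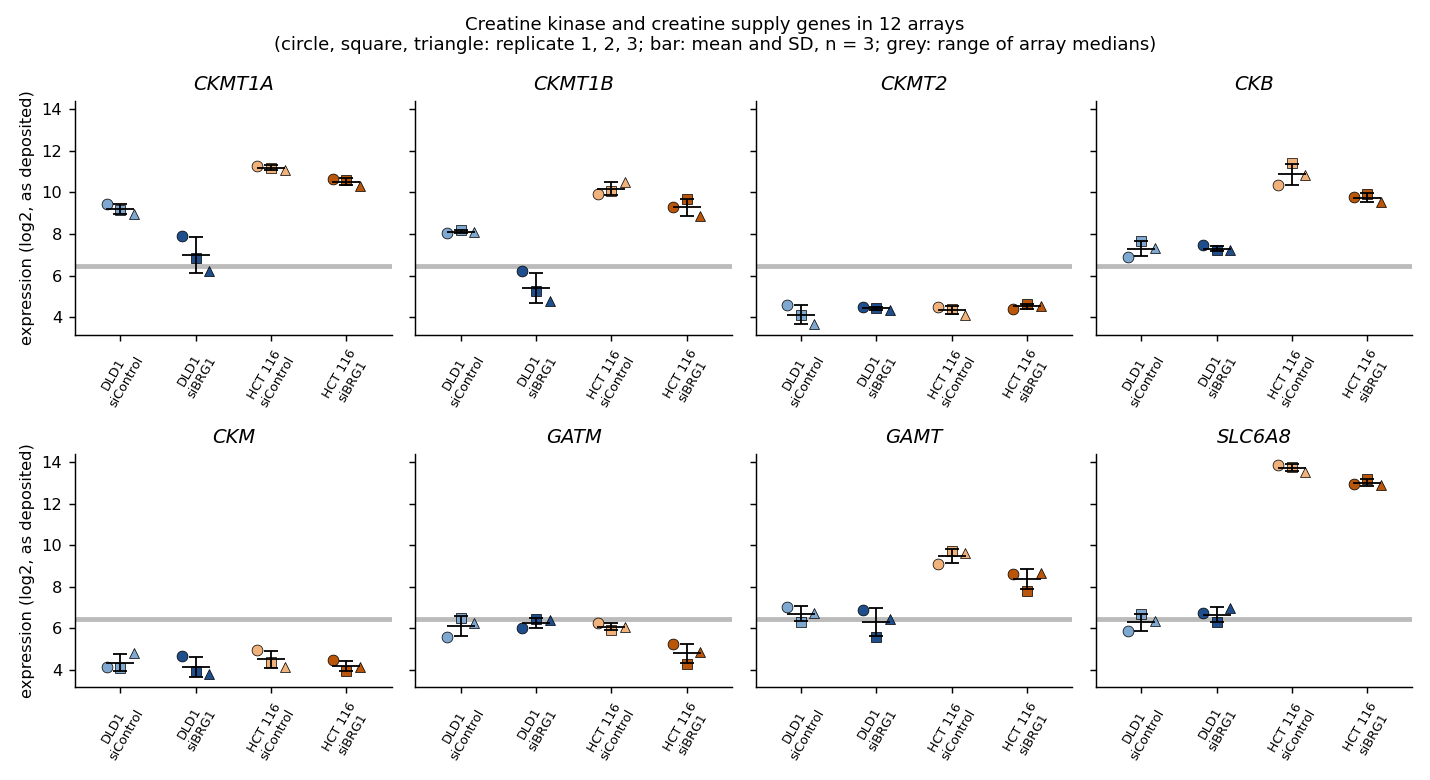
Expression of the 8 genes (log2, vertical axis) on each of the 12 arrays, by group; symbols mark replicates 1, 2 and 3, bars the mean and SD of 3 arrays, and the grey band the range of array medians. CKMT1A and CKMT1B are lowest in DLD1 siBRG1, SLC6A8 lies between 12.9 and 13.9 on every HCT 116 array and between 5.87 and 6.96 on every DLD1 array, and CKMT2 and CKM lie below the band throughout.

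Under control siRNA the lines differed in this system. Comparing HCT 116 siControl with DLD1 siControl, 5 of the 8 genes were higher in HCT 116 and none was lower (limma, Benjamini-Hochberg adjusted p under 0.05 over all genes). Of all genes, 13.6% were called higher in HCT 116 and 27.6% in either direction. The same 5 were those in which every HCT 116 array was above every DLD1 array, which held for 20.3% of all genes. CKMT1A and CKMT1B count here as 2 of the 5, although their probes may not tell them apart. The DLD1 siControl arrays also entered the comparison that drew attention to this pair. The median difference of the 8 genes was 2.02, against 0.03 over all genes.

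The transporter showed the widest gap of the 8. SLC6A8 measured 13.87, 13.77 and 13.53 on the HCT 116 siControl arrays and 5.87, 6.68 and 6.35 on the DLD1 siControl arrays. The groups stood far apart, and 1 of the 3 DLD1 values was above the median of its array. The means were 13.72 ± 0.17 and 6.30 ± 0.41 (SD, n = 3 each), a difference of 7.42 (SE 0.23, limma adjusted p = 3.27e-12), or 172-fold. Since the DLD1 values lie near or below the array medians, the size of this fold is uncertain.

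CKB, the cytosolic kinase known from brain and gut epithelium, measured 10.38, 11.40 and 10.85 on the HCT 116 siControl arrays and 6.91, 7.65 and 7.31 on the DLD1 siControl arrays. All HCT 116 values were above all DLD1 values. The difference was 3.58 (SE 0.25, limma adjusted p = 3.07e-08), or 12-fold.

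The mitochondrial kinase rows were also higher in HCT 116 than in DLD1. CKMT1A measured 11.29, 11.19 and 11.06 on the HCT 116 siControl arrays against 9.43, 9.17 and 8.95 in DLD1, a difference of 2.0 (SE 0.31, limma adjusted p = 1.49e-04). CKMT1B measured 9.95, 10.04 and 10.52 against 8.05, 8.20 and 8.11, a difference of 2.05 (SE 0.31, limma adjusted p = 1.02e-04). In neither row did the groups overlap, and the differences correspond to 3.99-fold and 4.15-fold.

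Of the synthesis enzymes, GAMT was called in this comparison and GATM was not. GAMT, which methylates guanidinoacetate to creatine, measured 9.09, 9.71 and 9.62 on the HCT 116 siControl arrays and 7.05, 6.33 and 6.72 on the DLD1 siControl arrays. The groups did not overlap, and the difference was 2.77 (SE 0.32, limma adjusted p = 8.83e-06), or 6.83-fold. In DLD1 siControl 2 of the 3 GAMT values were above the array median, so the size of this fold is uncertain. GATM, which makes guanidinoacetate, measured 6.25, 5.91 and 6.07 against 5.59, 6.50 and 6.25. These groups overlapped, and the difference was −0.04 (95% interval −0.60 to 0.53, limma adjusted p = 0.943). GATM was above the array median on 1 of the 3 DLD1 siControl and 0 of the 3 HCT 116 siControl arrays. Whether its expression differs between the lines therefore cannot be told here.

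The muscle kinases were low in both lines. CKMT2 lay between 3.68 and 4.65 and CKM between 3.81 and 4.97 over the 12 arrays, below the array median on every one, so no statement on their expression in these cells is possible beyond that. Of 11 markers of striated muscle measured, 9 were likewise below the array median on all 12 arrays, among them DES and MYOD1, and ACTA1 was above it on all 12. The differences between the control lines were 0.22 (95% interval −0.24 to 0.68) for CKMT2 and 0.16 (95% interval −0.44 to 0.76) for CKM.

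The 5 calls between the control lines stood under each of the 21 alternative settings tried for this comparison. The summed level of the epithelial markers was lower in HCT 116 siControl (17.50 to 17.68 on the log2 scale) than in DLD1 siControl (18.31 to 18.59), and its part in these differences was not tested. In bulk RNA, fewer cells that express a gene and less of its RNA per cell cannot be told apart.

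**Figure D2:**
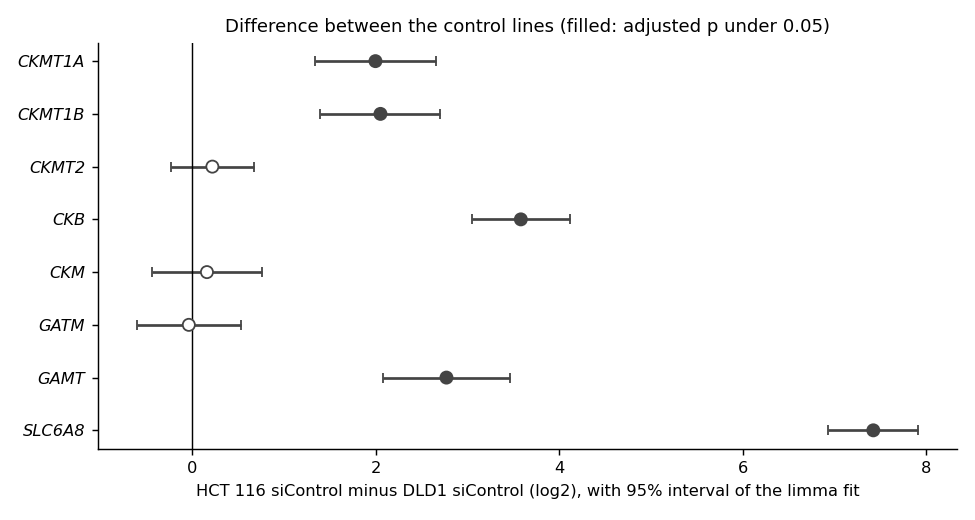
Difference of each gene between HCT 116 siControl and DLD1 siControl (log2, horizontal axis), with the 95% interval of the limma fit over 3 arrays each; filled points passed an adjusted p of 0.05. SLC6A8 (7.42), CKB (3.58), GAMT (2.77), CKMT1B (2.05) and CKMT1A (2.0) were higher in HCT 116, and CKMT2, CKM and GATM did not pass.

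In DLD1, the mitochondrial kinase rows were lower on the siBRG1 arrays, and none of the other members was called. CKMT1B measured 8.05, 8.20 and 8.11 on the siControl arrays and 6.21, 5.24 and 4.79 on the siBRG1 arrays. Every siBRG1 value was below every siControl value and below the median of its array. The change was −2.71 (SE 0.31), a level 6.54-fold lower, and its size is uncertain because the low values cannot be told from background.

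CKMT1A measured 9.43, 9.17 and 8.95 on the DLD1 siControl arrays and 7.89, 6.85 and 6.21 on the DLD1 siBRG1 arrays. The groups again did not overlap, and 2 of the 3 siBRG1 values were above the median of their array. The change was −2.20 (SE 0.31), a level 4.60-fold lower. The siBRG1 arrays spread more (SD 0.85) than the siControl arrays (SD 0.24), with replicate 1 highest in both rows; without that array the change of CKMT1A was −2.66.

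None of the other 6 members was called in DLD1 by limma, over all genes or at an unadjusted p under 0.05, and in each of the 6 the siBRG1 and siControl arrays overlapped. Of all genes, 0.198% were called in DLD1, and 15.5% had arrays that did not overlap. SLC6A8 measured 6.74, 6.28 and 6.96 after siBRG1 against 5.87, 6.68 and 6.35 in the controls, a change of 0.36 (95% interval −0.13 to 0.85, limma adjusted p = 0.662). It was above the array median on 1 of the 3 siControl and 2 of the 3 siBRG1 arrays, and its other values cannot be told from background. CKB measured 7.45, 7.22 and 7.23 against 6.91, 7.65 and 7.31, a change of 0.01 (95% interval −0.53 to 0.54, limma adjusted p = 0.997).

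The enzymes that make creatine also kept overlapping values in DLD1. GATM had a change of 0.16 (95% interval −0.40 to 0.73, limma adjusted p = 0.917) and GAMT of −0.40 (95% interval −1.09 to 0.29, limma adjusted p = 0.768). CKMT2 and CKM, below the array medians, had changes of 0.30 (95% interval −0.15 to 0.76) and −0.20 (95% interval −0.80 to 0.40). The interval of GAMT is wide and holds values from a clear fall to a small rise. GAMT was above the array median on 2 of the 3 siControl and 1 of the 3 siBRG1 arrays, and GATM on 1 and 0. The other values of both genes cannot be told from background.

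In HCT 116, GATM and CKB were called lower after BRG1 siRNA, and more members had separated arrays than passed the test. The GATM values of this line were all below the median of their array and cannot be told from background. Of the 8 genes, 2 were called lower and none higher, where 4.13% of all genes were called lower and 6.95% in either direction. In 6 of the 8 (CKMT1A, CKMT1B, CKB, GATM, GAMT and SLC6A8) every siBRG1 array was below every siControl array, which held for 13% of all genes. The median change of the 8 was −0.80, against −0.01 over all genes. The rows of CKMT1A and CKMT1B enter the 6 and this median as 2 genes, although their probes may not tell them apart. The count of 2 called lower became 1 without HCT 116 siControl replicate 2 (3.49% of all genes called) or siBRG1 replicate 3 (3.62%). It became 4 without DLD1 siBRG1 replicate 1, which enters the shared estimate of the spread (7.19% of all genes called).

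GATM, the first enzyme of creatine synthesis, measured 6.25, 5.91 and 6.07 on the HCT 116 siControl arrays and 5.24, 4.30 and 4.84 on the siBRG1 arrays. All siBRG1 values were below all siControl values. The mean was 6.08 ± 0.17 on the siControl arrays and 4.80 ± 0.47 on the siBRG1 arrays (SD, n = 3 each). The difference was −1.28 (SE 0.27, limma adjusted p = 0.00998). All 6 values were below the median of their array, so it was measured in a range that cannot be told from background. Its size is uncertain, and whether GATM expression fell cannot be told here.

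CKB measured 10.38, 11.40 and 10.85 on the HCT 116 siControl arrays and 9.78, 9.93 and 9.54 on the siBRG1 arrays. The groups did not overlap. The change was −1.12 (SE 0.25, limma adjusted p = 0.0145), a level 2.18-fold lower. Without siControl replicate 2 the change was −0.86 (limma adjusted p = 0.0725) and without siBRG1 replicate 3 it was −1.02 (limma adjusted p = 0.0684), so the call rests on each of these arrays.

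GAMT, the second enzyme of creatine synthesis, measured 9.09, 9.71 and 9.62 against 8.63, 7.82 and 8.68 after siBRG1. The groups did not overlap, but the change of −1.10 (SE 0.32, 95% interval −1.79 to −0.40) did not pass (limma adjusted p = 0.0565). It passed under 8 of 22 alternative settings, with adjusted p from 0.0127 to 0.214 over all of them.

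SLC6A8, the creatine transporter, measured 13.87, 13.77 and 13.53 against 12.93, 13.19 and 12.89 after siBRG1. The arrays separated cleanly, and the change of −0.72 (SE 0.23, 95% interval −1.21 to −0.23) did not pass over all genes (limma adjusted p = 0.0786). Its siBRG1 mean of 13.01 ± 0.16 was still far above every DLD1 array.

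The mitochondrial kinase rows had smaller changes in HCT 116 than in DLD1. CKMT1B measured 9.95, 10.04 and 10.52 against 9.30, 9.70 and 8.88, a change of −0.88 (SE 0.31, 95% interval −1.53 to −0.22, limma adjusted p = 0.106). CKMT1A measured 11.29, 11.19 and 11.06 against 10.63, 10.60 and 10.33, a change of −0.66 (SE 0.31, 95% interval −1.32 to 0.00, limma adjusted p = 0.248). Neither passed, although the arrays of the groups did not overlap in either row. The DLD1 siBRG1 arrays add to the spread used here: without replicate 1 of that group CKMT1B passed (limma adjusted p = 0.0359), and with the 6 HCT 116 arrays fitted alone neither did (limma adjusted p = 0.0825 for CKMT1B and 0.0699 for CKMT1A). CKMT2 and CKM had overlapping arrays and changes of 0.18 (limma adjusted p = 0.726) and −0.33 (limma adjusted p = 0.59).

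**Figure D3:**
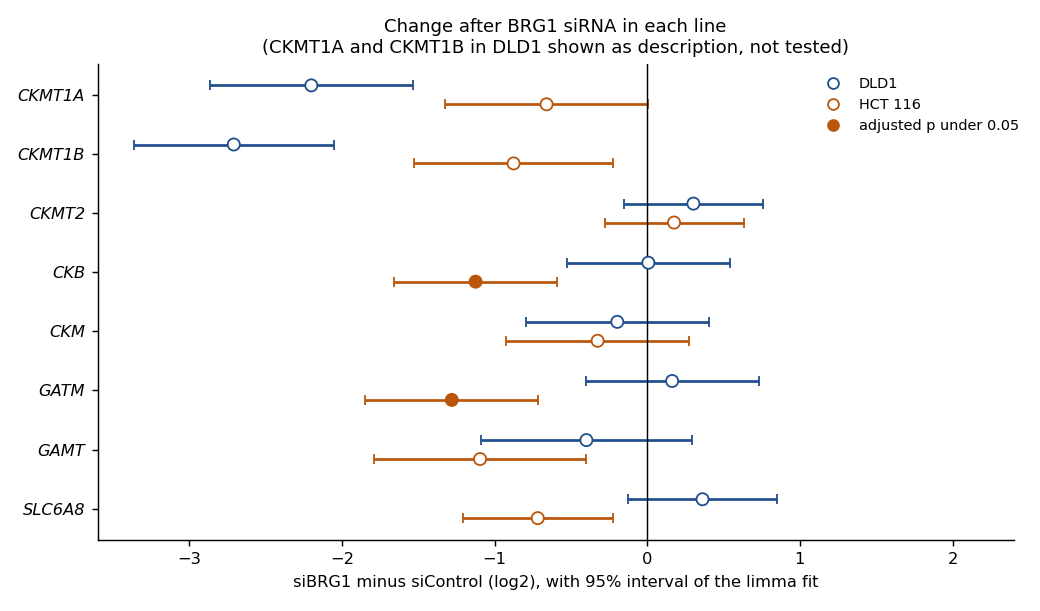
Change of each gene after BRG1 siRNA (log2, horizontal axis) in DLD1 (blue) and HCT 116 (orange), with the 95% interval of the limma fit over 3 arrays per group; filled points passed an adjusted p of 0.05, and CKMT1A and CKMT1B in DLD1 were not tested. In DLD1 the mitochondrial kinase rows lie at −2.20 and −2.71 and the other 6 genes between −0.40 and 0.36, whereas in HCT 116 the filled points are GATM (−1.28) and CKB (−1.12).

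Tested as an interaction, the changes in HCT 116 and DLD1 differed in none of the 6 members by limma, where 0.334% of all genes were called. At an unadjusted p under 0.05 there were 3, GATM, CKB and SLC6A8, where 8.99% of all genes had such a p. The difference (HCT 116 change minus DLD1 change) was −1.44 for GATM (SE 0.38, 95% interval −2.24 to −0.64, limma adjusted p = 0.158), −1.13 for CKB (SE 0.35, 95% interval −1.89 to −0.38, limma adjusted p = 0.263) and −1.08 for SLC6A8 (SE 0.33, 95% interval −1.77 to −0.38, limma adjusted p = 0.236). For GAMT it was −0.70 (95% interval −1.68 to 0.28, limma adjusted p = 0.759). GATM was above the array median on 1 DLD1 siControl array and on no other array. SLC6A8 was above it on 1 of the 3 DLD1 siControl and 2 of the 3 DLD1 siBRG1 arrays. The other values of GATM, and of SLC6A8 in DLD1, cannot be told from background, so the sizes of their differences are uncertain. A block for the array number within each line was added after seeing the data. With it GATM passed the interaction test (blocked limma adjusted p = 0.0411), where 0.577% of all genes did. The numbers paired the arrays in DLD1 and not clearly in HCT 116. For CKMT1B and CKMT1A the difference was 1.83 (SE 0.43) and 1.54 (SE 0.44), the larger fall being that in DLD1.

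Averaged over both lines, limma called none of the 6 members, and 8.68% of all genes. At an unadjusted p under 0.05 there were 3, where 21.5% of all genes had such a p. The mean changes of the 3 were −0.75 for GAMT (SE 0.23, limma adjusted p = 0.0574), −0.56 for CKB (SE 0.18, limma adjusted p = 0.0661) and −0.56 for GATM (SE 0.19, limma adjusted p = 0.0829). The block for the array number within each line was added after seeing the data. With it all 3 passed (blocked limma adjusted p = 0.0219, 0.0442 and 0.0157), where 14% of all genes did. SLC6A8 (−0.18), CKM (−0.26) and CKMT2 (0.24) did not pass in either fit. The mean change of GATM rests on values near or below the array medians, so its size is uncertain.

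The CKMT1A and CKMT1B rows followed each other across the arrays. After each row was centred on its mean over the 12 arrays, they differed by a root mean square of 0.33, against a root mean square of 1.65 for CKMT1A and 1.83 for CKMT1B themselves. Both rows were highest in HCT 116 siControl, then HCT 116 siBRG1, DLD1 siControl and DLD1 siBRG1, and neighbouring groups in that order did not overlap in either row. The rows may share probes, so they are not independent measurements.

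**Figure D4:**
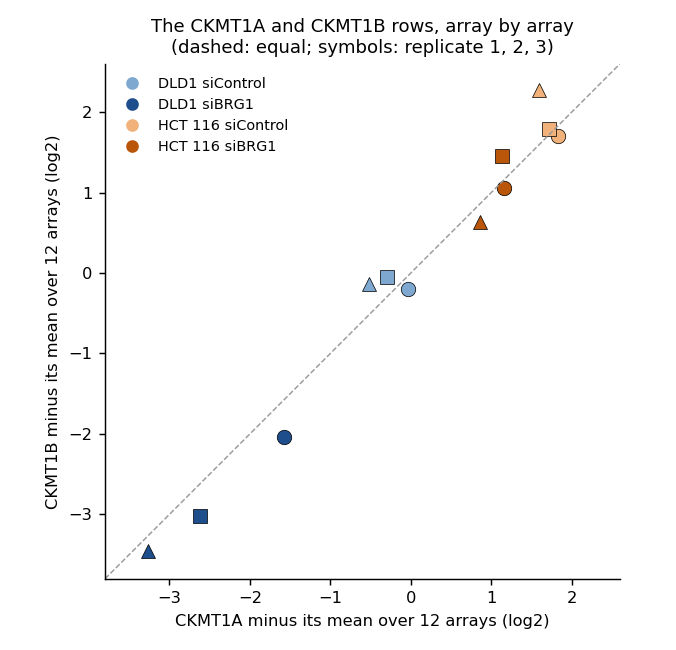
CKMT1A (horizontal) and CKMT1B (vertical) on the 12 arrays, each minus its own mean (log2); colours mark the groups, symbols the replicates and the dashed line equal deviations. The points run along the line with a root mean square difference of 0.33, the 3 DLD1 siBRG1 arrays at the lower end.

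The genes around the pair on chromosome 15 were looked at after the values of the pair were seen. In the GRCh38.p14 gene order, 9 neighbours within 100 kb of the segment that holds CKMT1B and CKMT1A were measured: TP53BP1, MAP1A, PPIP5K1, STRC, CATSPER2, PDIA3, ELL3, SERF2 and SERINC4. Their changes ran from −0.22 to 0.40 in DLD1 and from −0.48 to 0.30 in HCT 116, and limma called none in either line, where 0.198% and 6.95% of all genes were called. STRC and CATSPER2, which lie between the pair and have copies in the duplicated segment, had values of −0.22 (SE 0.26) and −0.07 (SE 0.21) for this change in DLD1, with mean levels of 3.24 and 4.55. These, and the mean levels of MAP1A (3.85) and SERINC4 (4.66), cannot be told from background. Between the control lines, where 27.6% of all genes were called, 1 of the 9 differed, SERF2, which was lower in HCT 116 (−0.88, SE 0.20, limma adjusted p = 0.00413), while CKMT1A and CKMT1B were higher there.

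**Figure D5:**
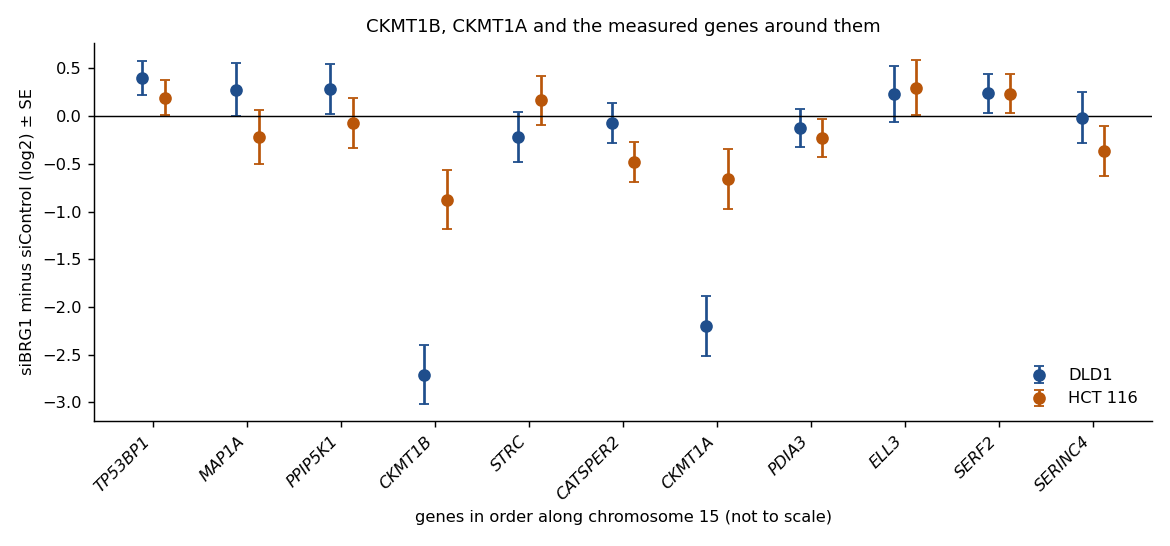
Change after BRG1 siRNA (log2 ± SE, vertical axis) in DLD1 (blue) and HCT 116 (orange) of CKMT1B, CKMT1A and 9 measured neighbours, placed in their order along chromosome 15 and not to scale. The pair lies at −2.71 and −2.20 in DLD1, while the neighbours lie between −0.22 and 0.40 in that line.

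Genes that supply the creatine system or work beside it were taken from 7 lists, 91 genes in all, of which 78 were measured. In DLD1 limma called none of the 78, where 0.198% of all genes were called. At an unadjusted p under 0.05 there were 15, where 10.5% of all genes had such a p. In HCT 116 it called 1 higher and 7 lower, or 10.3% of the 78 against 6.95% of all genes. Averaged over both lines 2 were higher and 9 lower, or 14.1% against 8.68%. The change differed between the lines in none of the 78 by limma, where 0.334% of all genes were called. At an unadjusted p under 0.05 it differed in 6, where 8.99% of all genes had such a p. The median change of the 78 was −0.12 in DLD1 and −0.05 in HCT 116. Between the control lines 10 were higher and 19 lower in HCT 116, 37.2% of the 78 against 27.6% of all genes.

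The mitochondrial kinase works with the adenine nucleotide carrier of the inner membrane and the VDAC pores of the outer membrane. Of 6 measured genes of these membrane partners, SLC25A4, an adenine nucleotide carrier, fell in HCT 116 (−1.06, SE 0.18, limma adjusted p = 0.00299). The other 5 did not pass, where 6.95% of all genes were called. In DLD1 SLC25A4 had a change of −0.41 (SE 0.18, limma adjusted p = 0.445). It fell in the average of both lines (−0.73), where 8.68% of all genes were called. Unlike the mitochondrial kinase rows, SLC25A4 was lower in HCT 116 siControl than in DLD1 siControl (−0.98, SE 0.18, limma adjusted p = 6.76e-04), where 27.6% of all genes were called.

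Arginine is a substrate of GATM. Of 17 measured genes of arginine supply and use, 3 fell in HCT 116 (4.13% of all genes did) and none rose. They were ASS1 of arginine synthesis (−1.50, SE 0.27, limma adjusted p = 0.00362), the arginine transporter gene SLC7A2 (−1.11, SE 0.32, limma adjusted p = 0.0486) and OAT, ornithine aminotransferase (−0.70, SE 0.20, limma adjusted p = 0.0443). SLC7A2 was above the array median on 1 of the 3 HCT 116 siBRG1 arrays, so the size of its fall is uncertain. ASS1 and OAT also fell in the average of both lines (−0.97 and −0.58), where 8.68% of all genes were called. In DLD1 none of the 17 passed, and the largest changes were those of AGMAT (−0.92, SE 0.44, limma adjusted p = 0.486) and SLC7A7 (−0.92, SE 0.36, limma adjusted p = 0.355). Between the control lines, where 27.6% of all genes were called, 1 was higher and 7 were lower in HCT 116. Among those lower were AGMAT (−4.39) and the amino acid transporter gene SLC7A7 (−3.94). Both were below the array median on all 3 HCT 116 siControl arrays, so the sizes are uncertain.

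Glycine is the other substrate of GATM. Of 10 measured genes of glycine and serine supply, 3 fell in HCT 116, where 4.13% of all genes did. The 3 were PHGDH (−2.22) and PSAT1 (−1.86) of serine synthesis, and the neutral amino acid transporter gene SLC1A5 (−1.34, SE 0.27, limma adjusted p = 0.00852). In DLD1 none of the 10 passed, but these 3 genes had values in the same direction there, −1.05 for PHGDH, −0.81 for PSAT1 and −0.90 for SLC1A5. SLC1A4, another neutral amino acid transporter gene, had the largest change in DLD1 (−1.20, SE 0.41, limma adjusted p = 0.283). Averaged over both lines, where 8.68% of all genes were called, all 4 fell (PHGDH −1.64, PSAT1 −1.33, SLC1A5 −1.12 and SLC1A4 −1.12, limma adjusted p from 0.00242 to 0.029). For none was a difference between the lines called. In HCT 116 siControl 2 of the 10 were higher and 3 lower than in DLD1 siControl, where 27.6% of all genes were called. SLC1A4 (−4.31) was among those lower, and GLDC, of the glycine cleavage system, among those higher (2.09). GLDC was below the array median on all 3 DLD1 siControl arrays, so the size of its difference is uncertain. SLC1A4 was above it on 2 of the 3 HCT 116 siControl and 0 of the 3 HCT 116 siBRG1 arrays. The sizes of its average change and of its difference between the control lines are therefore uncertain.

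GAMT uses S-adenosylmethionine as methyl donor. Of 15 genes of that cycle none passed in either line alone. PEMT, a methyltransferase of phosphatidylcholine synthesis, rose in the average of both lines (0.47, SE 0.13, limma adjusted p = 0.0381), where 8.68% of all genes were called. It had a change of 0.71 in DLD1 (SE 0.19, limma adjusted p = 0.148) and AHCY, which clears the product of methyl transfer, one of −0.57 in HCT 116 (SE 0.23, limma adjusted p = 0.169). Between the control lines, where 27.6% of all genes were called, PEMT (0.93) and MTRR (0.84) were higher in HCT 116 and 2 other genes were lower.

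SLC6A8 belongs to a family of sodium-coupled transporters. Of 13 measured genes of the SLC6 family and creatine efflux, none passed in either line, with the largest changes in SLC6A20 in DLD1 (−0.70, SE 0.28, limma adjusted p = 0.375) and SLC6A6, the taurine transporter gene, in HCT 116 (−0.47, SE 0.28, limma adjusted p = 0.39). Between the control lines, where 27.6% of all genes were called, 1 was higher and 2 were lower in HCT 116. Those lower were SLC6A20 (−6.27, SE 0.28) and SLC6A6 (−2.68, SE 0.28), the direction opposite to that of SLC6A8. SLC6A20 was below the array median on all 3 HCT 116 siControl arrays, so the size of its difference is uncertain.

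Adenylate kinases and AMPK are other parts of the energy balance of a cell. Of 8 measured adenylate and nucleoside diphosphate kinase genes none passed in either line alone. AK4, a mitochondrial adenylate kinase, had changes of −0.81 in DLD1 (SE 0.21, limma adjusted p = 0.148) and −0.70 in HCT 116 (SE 0.21, limma adjusted p = 0.0615). It fell in the average of both lines (−0.75, SE 0.15, limma adjusted p = 0.00713), where 8.68% of all genes were called. Of the 8, 2 were higher and 3 lower in HCT 116 siControl than in DLD1 siControl, where 27.6% of all genes were called. Among those higher was AK4 (2.19, SE 0.21, limma adjusted p = 1.08e-06). Among those lower was NME6, a nucleoside diphosphate kinase gene (−1.10, SE 0.28, limma adjusted p = 0.00825). Of 9 genes of AMPK, the kinase that senses AMP, and of its upstream kinases, PRKAB1 rose in HCT 116 by 0.80 (SE 0.17, limma adjusted p = 0.0102). The other 8 did not pass, where 6.95% of all genes were called. CAMKK2 had the largest change in DLD1 (−0.50, SE 0.19, limma adjusted p = 0.329). In the average of both lines, where 8.68% of all genes were called, PRKAB1 rose (0.64) and CAMKK2 fell (−0.53). Of the control lines, HCT 116 had higher levels of the catalytic subunit gene PRKAA2 (2.83) and of PRKAG2 (1.11). It had a lower level of PRKAB1 (−0.47, SE 0.17, limma adjusted p = 0.0485). Of all genes, 27.6% were called between these lines. PRKAA2 was below the array median on all 3 DLD1 siControl arrays, so the size of its difference is uncertain.

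The genes most like each member were those with the smallest root mean square difference of mean-centred values over the 12 arrays. For SLC6A8 these were ANXA10 (0.23), RFLNB (0.32), DBN1 (0.36), ZNF512 (0.39) and PLIN2 (0.39), against a root mean square of 3.46 for SLC6A8 itself. For CKB they were CERCAM (0.33), LOXL1 (0.34), ETNK2 (0.35), ABHD10 (0.35) and TSPAN3 (0.35), against 1.58. For GAMT they were S100A4 (0.36), STMN3 (0.37), MACROH2A2 (0.40), B4GALT5 (0.41) and AK4 (0.42), against 1.34.

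By this root mean square difference, which is not scaled to a row's own spread, the genes nearest to the mitochondrial kinase rows were less close. For CKMT1A they were ID3 (0.56), ANXA1 (0.60), S100A4 (0.63), B4GALT5 (0.66) and KLK7 (0.67). For CKMT1B they were PROM1 (0.77), CD44 (0.77), ID3 (0.78), B4GALT5 (0.82) and ANXA1 (0.82). All of these lay further from the rows than the rows lay from each other (0.33). For GATM the nearest were KREMEN1 (0.28), DGKD (0.28), CTTN (0.31), ATF2 (0.31) and TEX261 (0.31), against a root mean square of 0.66 for GATM.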

How the data were processed

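The authors deposited log2 values, made by RMA with Affymetrix Power Tools according to the submitters' processing notes. Neither a version nor a genome build was found in the labels used here. On each array 94 to 112 values are above 16, the log2 ceiling of a 16-bit scan, and the step that gave them is not stated. Titles decided the groups, since 4 HCT 116 samples have source names with other numbering. Of 21448 features, 17709 had 1 symbol in the array's annotation, updated to RefSeq by Entrez ID, and the brightest feature per symbol left 17687 genes.

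Group means were fitted to all 12 arrays with limma 3.58.1 in R 4.3.3 (8 residual and 6.66 prior degrees of freedom), with p-values adjusted by Benjamini-Hochberg over all genes and called under 0.05. Intervals are 95% and unadjusted. The members, lists and rules were chosen with earlier results of these data known. Pathway genes named were up to 3 called genes per list and line with the largest change, otherwise the 1 with the largest change, and up to 2 called genes between the control lines. Likeness was computed for CKMT1A, CKMT1B and each member called in HCT 116 or between control lines.

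Same-numbered siControl and siBRG1 arrays deviated together across genes in DLD1 (correlations 0.49, 0.46 and 0.29), which was read as pairing in DLD1, from the data and not from the labels; in HCT 116 they did not all exceed 0.1 (0.30, 0.15 and 0.03). Alternatives were replicate blocks, each comparison's arrays alone, other normalizations, a level filter, other priors, array weights and each array left out.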

Additional observations from a re-analysis of the deposited data

How the results depend on the processing

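No change of a called member turned direction under the settings tried, and 19 of 841 values changed sign with neither fit calling the gene. In HCT 116 the count of 2 members called (6.95% of all genes) ranged from 1 to 4 when an array was left out. The lower end came without siControl replicate 2 (3.49% of all genes called) or siBRG1 replicate 3 (3.62%). The upper end came without DLD1 siBRG1 replicate 1, which enters the shared spread (7.19% of all genes called). GATM passed in HCT 116 under all 21 settings that kept it (adjusted p from 0.00251 to 0.0491), and the filter at the median level removed it, CKMT2 and CKM. For the average of both lines, the main fit called 0 members and 8.68% of all genes. The replicate block called 2 members (9.39% of all genes). The replicate block within each line (added after seeing the data) called 3 (14%). Quantile normalization called 1 (8.85%), the level filter 2 (20.6% of the genes it kept), a trended and robust prior 1 (9.64%) and array weights 3 (13%). Without both HCT 116 arrays numbered 1 (added after seeing the data) there were 2 (8.61%). When an array was left out there were 0 to 2 (4.51% to 9.01%). For the difference between lines, 0 became 1 with the replicate block within each line, where 0.577% of all genes were called. The replicate block changed no DLD1 call. In HCT 116, where the same-number correlations did not all exceed 0.1, the plain block gave 3 members (7.68% of all genes). GAMT was the one added (blocked limma adjusted p = 0.0347). The block within each line also gave 3 (12% of all genes), with GAMT again added (blocked limma adjusted p = 0.0211). The causes were not tested. In DLD1 the change of CKMT1B ran from −3.11 to −2.40 and that of CKMT1A from −2.66 to −1.81. The number of arrays and the lack of detection calls limit the values near the array medians, those of GATM above all.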
